A study of Mus musculus with 8 samples.

Results

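Ezh2 occupancy was compared between wild-type TT2 mouse embryonic stem cells and a TT2 double knockout of G9a and GLP (G9a-/-GLP-/-), using 3 of the 8 samples of the series: wild-type Ezh2 libraries 0 and 1 and 1 knockout Ezh2 library, numbered 0. TT2 cells are embryonic stem cells from a cross of a C57BL/6 female and a CBA male, and all 3 libraries used the same Ezh2 antibody after fixation with 1% formaldehyde for 10 min. The comparison covered chromosomes 1 to 19. It asked how the called Ezh2 peaks differ in width, spacing, number of pieces and rank of score where both genotypes hold Ezh2. The series also has 2 G9a samples and 3 inputs, which were not used here.

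The enzyme of Polycomb repressive complex 2 is Ezh2, and its product is methylated lysine 27 on histone H3 (H3K27). In embryonic stem cells the complex sits mainly at CpG-rich start sites of silent developmental genes and covers the Hox clusters as long domains. G9a and GLP form a heterodimer that methylates lysine 9 of histone H3 (H3K9), the mark of another repressive pathway.

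The deposited values were peak lists, with positions and 1 score per peak made by the authors' peak caller. Sequencing depth is unknown, because the lists give no number of reads. On chromosomes 1 to 19 wild-type 0 had 5342 peaks, wild-type 1 had 11593 and the knockout had 6174. The lowest scores were 43.02, 30 and 43.03 in that order, so wild-type 1 reached weaker peaks. Its scores also met a ceiling: 322 peaks of wild-type 1 had a score of exactly 3100 and 16 were above it, against 5 and 1 peaks at 3100 in wild-type 0 and the knockout and none above. The knockout is named in the title and description of its sample, while the source name gives the cell line alone, and nothing in a list of peaks measures G9a or GLP to check it. The labels name no separate cultures behind the wild-type libraries, and the spread between them may be technical. With 1 knockout library no test between genotypes was possible. Wild-type 0 against wild-type 1 is therefore given as the spread beside the knockout values for which it was worked out.

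Knockout Ezh2 peaks were narrower than those of either wild-type library. The median width was 368 bp in the knockout (quartiles 294 and 594.75 bp), 470 bp in wild-type 0 (312 and 902.0 bp) and 721 bp in wild-type 1 (444 and 1441.0 bp). Peaks of 1 kb or wider made up 10.6% of the knockout list (657 peaks), 21.8% of the wild-type 0 list (1162) and 37.2% of the wild-type 1 list (4312). These wide peaks carried 32.0% of the bases covered in the knockout, 52.1% in wild-type 0 and 73.6% in wild-type 1. The knockout list covered 3.37 Mb with more peaks than wild-type 0, which covered 4.00 Mb, and wild-type 1 covered 14.9 Mb. The knockout values lay outside the range of the wild-type pair, but nearer to wild-type 0 than wild-type 1 was. Width went with score within each list (Spearman's rho across peaks 0.834 in the knockout, 0.900 in wild-type 0 and 0.868 in wild-type 1). The median score was 58.72 in the knockout, 86.84 in wild-type 0 and 58.27 in wild-type 1. In regions where all 3 lists had a peak, the median peak width was 488 bp in the knockout, 592 bp in wild-type 0 and 2968 bp in wild-type 1.

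**Figure D1:**
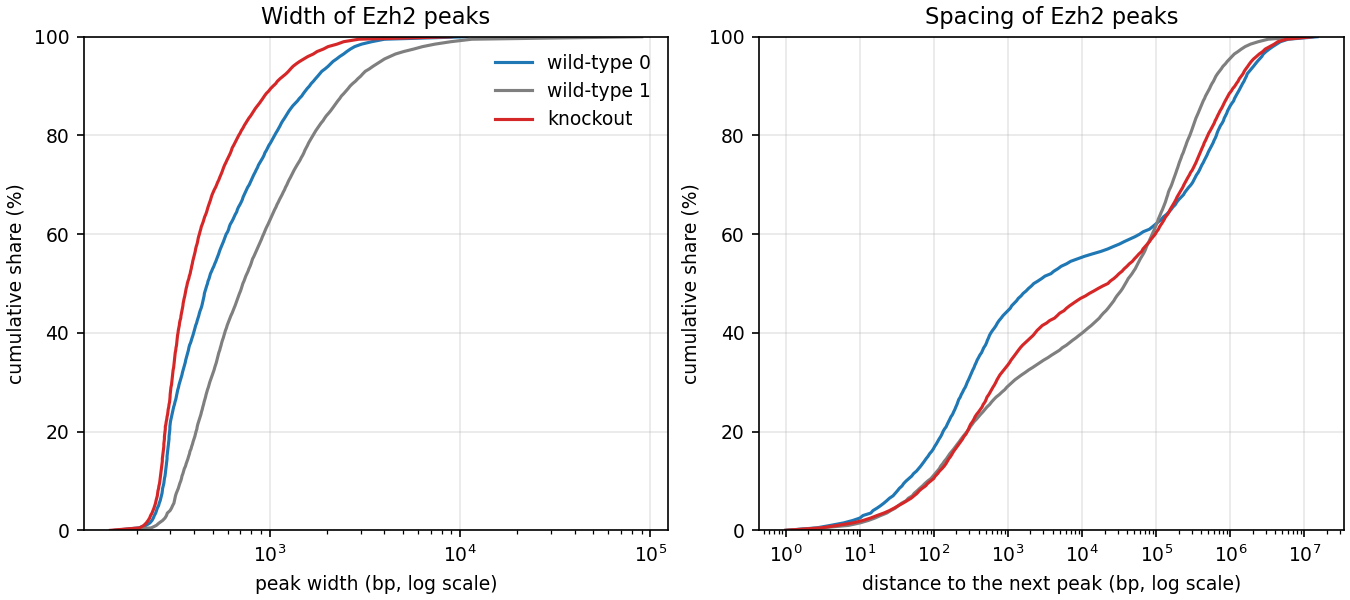
Cumulative share of Ezh2 peaks on chromosomes 1 to 19 by width (left) and of neighbouring peaks by distance (right), both on log axes in bp, with 1 line per library. The knockout line lies to the left of both wild-type lines for width, with medians of 368, 470 and 721 bp, and the distance lines cross, with medians of 22213, 2219 and 38448.5 bp.

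The median spacing in the knockout lay between those of the wild-type libraries, and its place against wild-type 0 turned with the score minimum. The median distance from 1 peak to the next was 22213 bp in the knockout, 2219 bp in wild-type 0 and 38448.5 bp in wild-type 1. Neighbours less than 5 kb apart made up 44.0% of pairs in the knockout (2709 of 6155), 53.2% in wild-type 0 (2831 of 5323) and 36.5% in wild-type 1 (4229 of 11574). Among peaks with scores of at least 100 the knockout was the tightest list, with a median distance of 6954 bp against 14632 and 163885 bp, and 47.8% of neighbours under 5 kb apart against 45.7% and 27.4%. The upper quartile of all distances was also lower in the knockout (354260 bp) than in wild-type 0 (446188 bp). Peaks with no neighbour within 5 kb on either side made up 40.5% of the knockout list (2499 peaks), 28.9% of wild-type 0 (1543) and 44.3% of wild-type 1 (5132). Of these isolated knockout peaks, 63.3% overlapped no wild-type peak, and 27.4% of those of wild-type 0 and 79.9% of those of wild-type 1 overlapped no peak of another list. When peaks found in 1 list alone were left out, the median distance was 1390.5 bp in the knockout, 1196.0 bp in wild-type 0 and 255375 bp in wild-type 1. The peaks left out numbered 1769 in the knockout (89.4% isolated), 444 in wild-type 0 (95.3%) and 8427 in wild-type 1 (48.7%).

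Overlapping peaks of the 3 lists were merged into 13811 regions, and 2592 of these had a peak from wild-type 0 and from wild-type 1. A knockout peak was called in 1643 of them, a background share of 63.4% for every count of these regions given here (exact binomial 95% interval 61.5 to 65.2, for counting error only). A wild-type list missed regions too, though fewer: 555 regions had peaks from wild-type 1 and the knockout but none from wild-type 0. Only 24 had peaks from wild-type 0 and the knockout but none from wild-type 1. The knockout missed 949, each of these counts standing beside the same 1643 regions with a peak from all 3 lists. The median span was 1293 bp for the 555 regions, 1532 bp for the 949 and 2992 bp for the 1643. Shares by width were not worked out for a wild-type list. Wide Ezh2 regions were called in the knockout far more often than narrow ones. Ordered by the length that wild-type 1 covered, the share was 23.1% in the narrowest of 5 groups (120 of 519, up to 1339 bp), 48.8% in the next, 66.1% in the middle one, 82.8% in the one after and 96.1% in the widest (499 of 519, from 4013 bp). Regions without a knockout peak held 1.23 wild-type 0 peaks on average, covering a median of 439 bp, against 2.26 peaks and 1240 bp in the 1643 regions. Having another wild-type region within 5 kb made little difference: 66.2% of the 973 regions with such a neighbour and 61.7% of the 1619 without one were called in the knockout. Within the 5 groups of width the shares with and without a neighbour lay within 5 percentage points of each other, for example 96.0% and 96.3% in the widest and 21.4% and 24.3% in the narrowest. The overall share moves with the wild-type library it is read against, at 19% of wild-type 1 regions when wild-type 0 was left out and 47.5% of wild-type 0 regions when wild-type 1 was left out. With lists cut to equal covered length, that of the knockout, it was 98.0%. This set the 3382 highest-scoring wild-type 0 peaks and the 495 of wild-type 1 against all 6174 knockout peaks. The cut was uneven, so that share is not comparable with 63.4%.

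The 1643 regions common to all 3 lists, called shared regions below, were covered over a shorter length in the knockout than in either wild-type library. The knockout covered a median of 933 bp per region (quartiles 511.0 and 1727.0), wild-type 0 covered 1240 bp (708.0 and 2325.0) and wild-type 1 covered 2992 bp (2067.5 and 4539.5). The median ratio of knockout to wild-type 0 covered length was 0.797 (quartiles 0.562 and 1.05). The ratio was 0.343 to wild-type 1 (0.223 and 0.494), and between the wild-type libraries, 0 to 1, it was 0.464 (0.314 and 0.604). The knockout was thus closer to wild-type 0 than the wild-type libraries were to each other. It covered less than wild-type 0 in 1163 regions (70.8%), and less than 0.5 of it in 311, which is 18.9% of the shared regions. In 64 regions (3.90%) it covered more than 2 times as much. Between the wild-type libraries 933 regions (56.8%) had a 0 to 1 ratio below 0.5 and 0.00% a ratio above 2, and for the knockout against wild-type 1 the shares were 75.8% and 0.00%. Across the settings tried, the knockout to wild-type 0 ratio stayed between 0.789 and 0.846.

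The shortfall against wild-type 0 came from both the ends and the inside of the regions. Summed over the shared regions, wild-type 0 covered 3.28 Mb and the knockout 2.56 Mb, a difference of 0.715 Mb. The stretch from the first to the last peak was 0.462 Mb shorter in the knockout (64.6% of the difference), and the uncovered gaps inside that stretch were 0.253 Mb longer (35.4%). In the 593 regions with more than 1 peak in both lists, peaks filled a median of 72.6% of the stretch in the knockout and 83.5% in wild-type 0, and the share was lower in the knockout in 425 of them (71.7%). The median gap between pieces of 1 region was 239 bp in the knockout and 175 bp in wild-type 0. In the 517 regions with exactly 1 peak in both, the peak was 480 bp wide in the knockout and 631 bp in wild-type 0 by median, so the lower cover was also seen where no splitting occurred.

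Within the wild-type 1 peak, knockout and wild-type 0 cover was highest near the centre and fell towards both edges. In the 1631 shared regions with a single wild-type 1 peak, the first knockout base lay a median of 737 bp inside its left edge and the last 727 bp inside its right edge, against 620 and 634 bp for wild-type 0. At the centre, wild-type 0 covered 69.8% of bases and the knockout 55.9%. The ratio of these shares was between 0.711 and 0.814 over the inner 18 of 20 bins and lowest in the outermost ones, at 0.597 and 0.686. The knockout profile was thus lower along the whole peak and not at its edges alone. Shorter stretches placed at random inside a longer peak also cover its centre most. The shape of the profile therefore does not test a preference for the centre. Of the bases the knockout covered in shared regions, 80.7% were also covered in wild-type 0, and 63.1% of the wild-type 0 bases were also covered in the knockout. Over the whole lists these shares were 62.0% and 52.2%. Wild-type 1 covered 96.1% of the wild-type 0 bases and 82.5% of the knockout bases over the whole lists. In turn 25.8% of the wild-type 1 bases were covered in wild-type 0 and 18.7% in the knockout. The shares thus depend on how much each list covers.

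**Figure D2:**
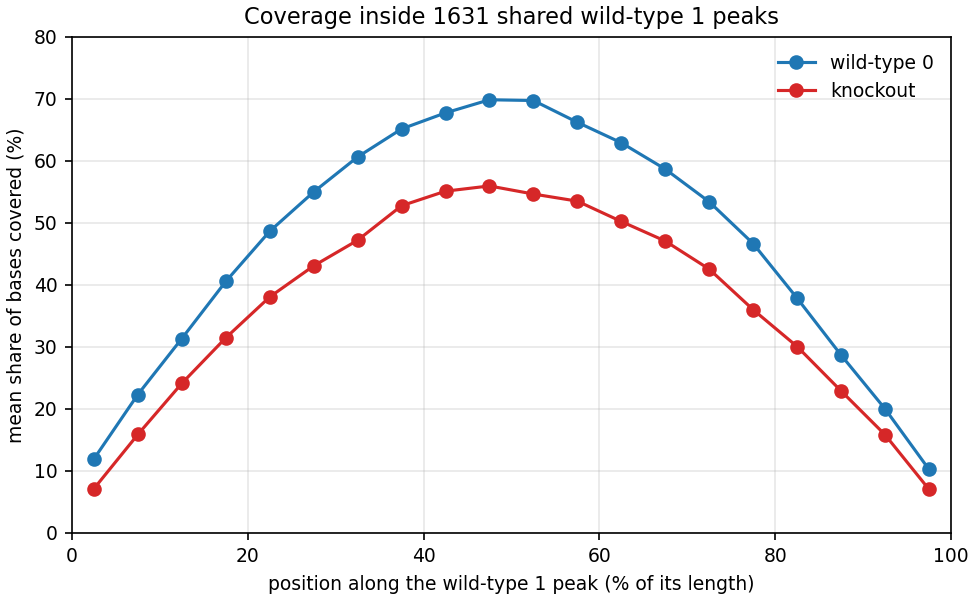
Mean share of bases covered by wild-type 0 peaks and by knockout peaks (vertical axis, %) in 20 bins along the wild-type 1 peak (horizontal axis, % of its length), over 1631 shared regions. Both lines peak at the centre, at 69.8% and 55.9%, and the knockout line is the lower one in every bin.

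The mean number of pieces per region was nearly equal in the knockout and wild-type 0, though not at every setting. Wild-type 1 had 1 peak in 99.3% of shared regions (1631), a mean of 1.01 per region, while wild-type 0 had 2.26 and the knockout 2.29. A single peak stood in 805 regions in wild-type 0 and 762 in the knockout, and 4 or more peaks in 263 and 255. Region by region the knockout had more peaks than wild-type 0 in 488 (29.7%), the same number in 728 (44.3%) and fewer in 427 (26.0%). Of the 805 regions that were 1 peak in wild-type 0, 288 (35.8%) were several peaks in the knockout. Conversely, of the 762 that were 1 peak in the knockout, 245 (32.2%) were several in wild-type 0. Which direction was the more frequent depended on the setting: with scores of at least 100 the knockout had more peaks in 15.7% and fewer in 22.4%, with equal list lengths 26.7% and 27.5%, and without wild-type 1 22.4% and 7.71%. The largest shift was with equal covered length, where the knockout had 3.90 and wild-type 0 3.01 peaks per region, with more knockout peaks in 58.6% and fewer in 16.6%. Only the wild-type lists were shortened in that setting. Unequal numbers were more frequent in both directions in wider regions. The knockout had more pieces in 12.8% of the narrowest of 5 width groups and 41.3% of the widest, and fewer in 14.6% and 38.3%. The narrowest group held means of 1.19 wild-type 0 and 1.17 knockout peaks per region, the widest 5.02 and 5.07. Numbers near 1 leave little room to differ, so this rise does not test splitting. In regions merged over all 3 lists, both lists numbered 0 were about equally fragmented. The wide wild-type 1 peaks set most of these regions, so its mean near 1 follows largely from the merging. It is therefore no measure of the spread in fragmentation between wild-type libraries. With wild-type 1 left out, the mean was 1.18 peaks per region in wild-type 0 and 1.39 in the knockout.

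The widest shared regions were each 1 peak in wild-type 1 and many pieces in the other lists. Loci are named here from general knowledge of the mm9 map and only as landmarks, since no annotation of that build was used. The widest, at the Hoxb cluster of homeobox genes that set position along the body axis (chr11:96129021-96219132), was covered over 60348 bp in 53 peaks in wild-type 0 and 58848 bp in 57 peaks in the knockout. The knockout to wild-type 0 ratio there was 0.975, against 0.859 at the Hoxa cluster (chr6:52145250-52205340) and 0.694 at the Hoxd cluster (chr2:74511324-74543344). Pieces were more numerous in the knockout at these 3 clusters, with 57 against 53, 43 against 32 and 22 against 18. The part of the Hoxc cluster at chr15:102791794-102813390 went the other way, with 13 knockout and 19 wild-type 0 peaks covering 11022 and 12486 bp. The region at Pax3, a paired-box gene of neural crest and muscle precursors (chr1:78182187-78205506), had the lowest ratio of these 5. There wild-type 0 covered 15737 bp in 8 peaks and the knockout 8561 bp in 10 peaks, a ratio of 0.544. The knockout to wild-type 0 ratio of the 5 ran from 0.544 to 0.975, while the wild-type 0 to wild-type 1 ratio stayed between 0.578 and 0.678.

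The largest excesses of knockout pieces were at loci with fewer covered bases in the knockout, which held for 70.8% of all shared regions. Wild-type 0 covered at least 3 kb at each of these loci. In the 296 shared regions with that much cover the ratio was above 1 in only 12.8%. At En1, a homeobox gene of the midbrain-hindbrain boundary (chr1:122490228-122504926), wild-type 0 had 6 peaks covering 10142 bp and the knockout 11 peaks covering 5638 bp. At Shh, which encodes a secreted signal that patterns neural tube and limb (chr5:28783723-28795309), 6 wild-type 0 peaks covered 7956 bp and 12 knockout peaks 5761 bp. The region at chr1:74927270-74933913 was a single wild-type 0 peak of 5717 bp, while 7 knockout peaks there covered 4415 bp. At chr5:120879427-120891030, 8 peaks over 10609 bp stood against 13 over 8294 bp. In these 4 regions and at the Hoxa cluster, the knockout covered less than wild-type 0 with more pieces, at ratios of 0.556 to 0.859.

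The largest deficits of knockout pieces went with covered-length ratios that differed widely. At Otx2, a homeobox gene of the forebrain (chr14:49281324-49294779), 10 wild-type 0 peaks covered 6317 bp, and 4 knockout peaks covered 1438 bp, a ratio of 0.228. At Foxa2, a forkhead gene of endoderm and floor plate (chr2:147861625-147875375), 9 and 4 peaks covered 7925 and 5695 bp, a ratio of 0.719. The number of pieces was lower by a similar step at both loci, but the knockout covered most of the wild-type 0 length at Foxa2 and less than 0.5 of it at Otx2. The region at chr7:77468637-77479247 had 8 and 3 peaks with a ratio of 0.512. The region at chr9:24573324-24584034 had 6 wild-type 0 peaks over 4221 bp and 1 knockout peak of 486 bp, a ratio of 0.115, although wild-type 1 covered it whole with a score of 3100.

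**Figure D3:**
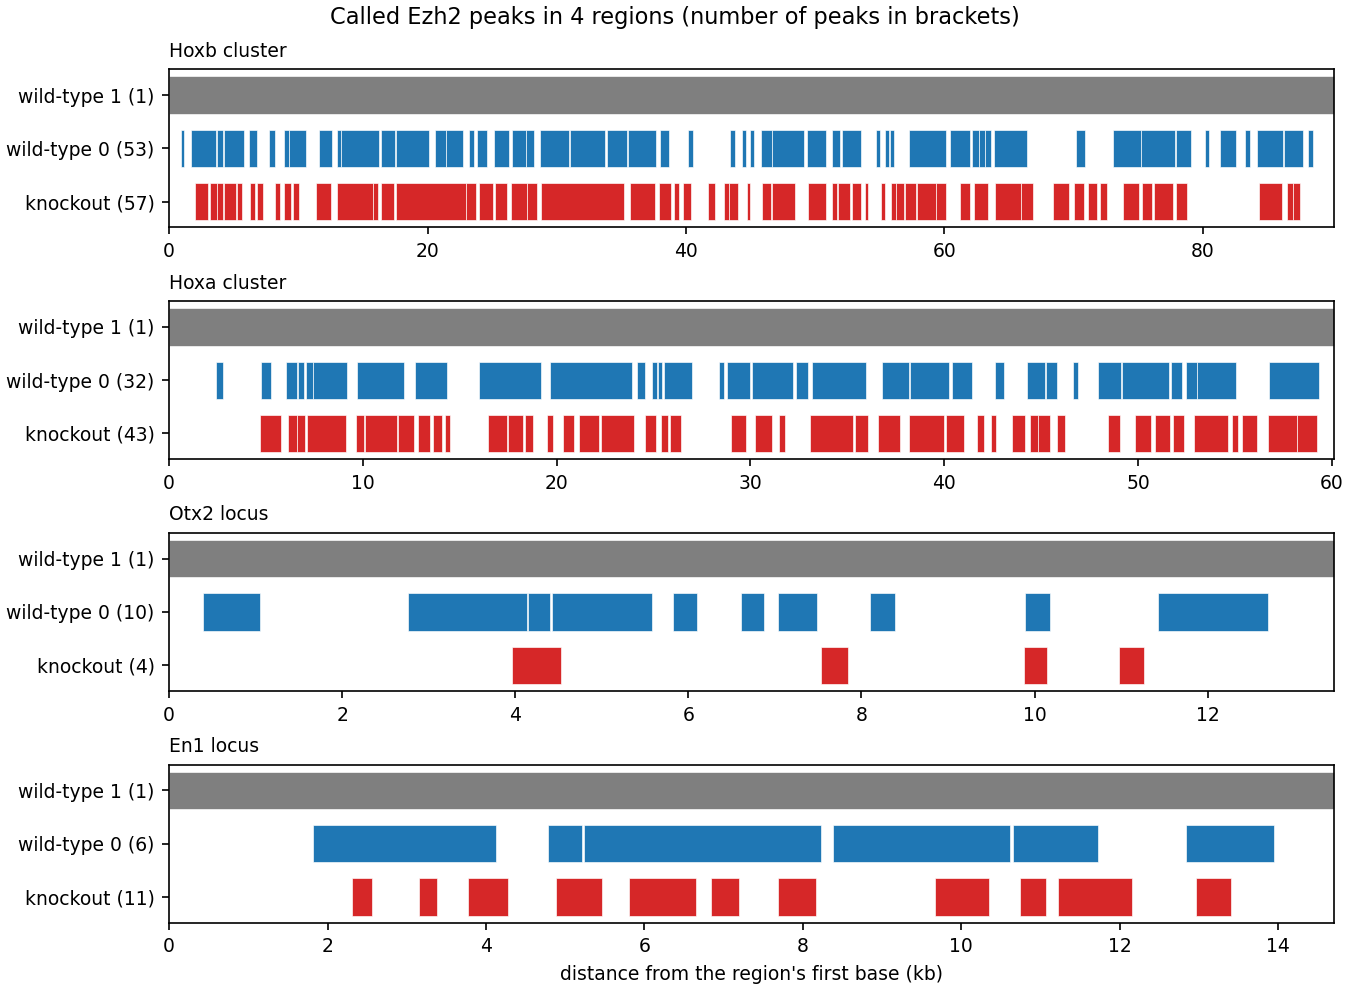
Called Ezh2 peaks (bars) in wild-type 1, wild-type 0 and the knockout across 4 shared regions, by distance from the region's first base in kb, with the number of peaks in brackets. Wild-type 1 is 1 peak in each. Knockout and wild-type 0 peaks number 57 and 53 at the Hoxb cluster, 43 and 32 at the Hoxa cluster, 4 and 10 at Otx2 and 11 and 6 at En1.

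Broad regions also differed widely in how much of the wild-type 0 cover the knockout had. In the 296 shared regions where wild-type 0 covered at least 3 kb the median ratio was 0.783. It was below 0.5 in 37 of them (12.5%, against 18.9% of all shared regions) and above 1 in 38 (12.8%, against 29.0% of all). These regions were chosen by their wild-type 0 length, the denominator of the ratio, so the shares are descriptions. The lowest ratio, 0.0882, was at chr1:57024511-57031057, with 3479 bp in 5 wild-type 0 peaks and 1 knockout peak of 307 bp. The next were chr4:88917709-88924431 with a ratio of 0.0914, the region on chromosome 9 given above, and the region at Tbx3, a T-box gene of limb and heart (chr5:120116398-120124293), with 0.147. The region at chr1:19223664-19233281 had 0.153, from 6246 bp in wild-type 0 and 956 bp in the knockout. Wild-type 1 had scores from 2995.26 to 3100 at these 5 regions and wild-type 0 covered 0.394 to 0.649 of the wild-type 1 length, so both wild-type lists held them as broad regions. At the other end, the knockout covered 1.76 times the wild-type 0 length at chr11:11919090-11936982 (7122 and 4045 bp). It covered 1.53 times as much at chr11:68196434-68203748. The ratio was 1.41 at Six2, a homeobox gene of kidney progenitors (chr17:86078641-86087341), with 4 knockout peaks over 5196 bp and 1 wild-type 0 peak over 3698 bp. It was 1.35 at chr8:72403177-72414020 and 1.31 at Osr1, a zinc-finger gene of kidney and heart mesoderm (chr12:9576722-9590749). None of these 5 regions was wider in the knockout than in wild-type 1, whose cover the knockout reached by 0.398 to 0.733. Wild-type 0 covered 0.226 to 0.561 of the wild-type 1 length there, and in 4 of the 5 less than the median of 0.464.

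Ranking the shared regions by their highest peak score within each list, the knockout order differed from the wild-type orders more than those differed from each other. Ranks are given as percentiles among the 1643 regions, from 0 (lowest) to 100 (highest). Spearman's rho across regions was 0.824 between the wild-type libraries, 0.695 between the knockout and wild-type 0 and 0.651 between the knockout and wild-type 1. The values are descriptions, since regions are not replicates and score goes with width in every list. The median shift in rank, without sign, was 10.3 percentile points between the wild-type libraries (quartiles 4.77 and 18.7), 12.9 between the knockout and wild-type 0 (5.37 and 24.8) and 14.1 between the knockout and wild-type 1 (6.47 and 27.3). Shifts above 25 points were seen in 201 regions (12.2%) between the wild-type libraries, and in 405 (24.7%) and 457 (27.8%) for the knockout. By covered length in place of score the order of the pairs was the same, with a rho of 0.805, 0.765 and 0.714, though not with equal covered length, where the knockout and wild-type 0 had 0.798 and the wild-type pair 0.785.

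Wild-type 1 ranks were limited by the score ceiling. There 338 shared regions (20.6%) stood at 3100 or above, against 4 in wild-type 0 and 0 in the knockout. The 1 knockout peak at 3100 lay outside the shared regions. Among the 1305 regions below the ceiling the rho was 0.733 between the wild-type libraries, 0.514 between the knockout and wild-type 0 and 0.463 between the knockout and wild-type 1. Some of the widest wild-type 1 peaks had low scores: the Hoxb peak of 90112 bp scored 73.19 (percentile 0.426) and the Hoxa peak 176.97 (percentile 3.29). The same clusters stood at percentiles 97.0 and 97.0 in wild-type 0 and 99.9 and 95.2 in the knockout. With the wild-type lists cut to the covered length of the knockout, 483 shared regions and 495 wild-type 1 peaks were left, 322 of these peaks at exactly 3100. The rho was then 0.645 for the knockout and wild-type 0 and 0.362 between the wild-type libraries. Most wild-type 1 peaks are tied in this setting, so it cannot order the pairs. At the top, 107 of the 164 highest-ranked of the 1643 regions in wild-type 0 were among the 164 highest of the knockout. The ties at the ceiling leave no such count for wild-type 1. Of the 338 regions at the wild-type 1 ceiling, 245 were among the top 338 of wild-type 0 and 237 among the top 338 of the knockout.

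**Figure D4:**
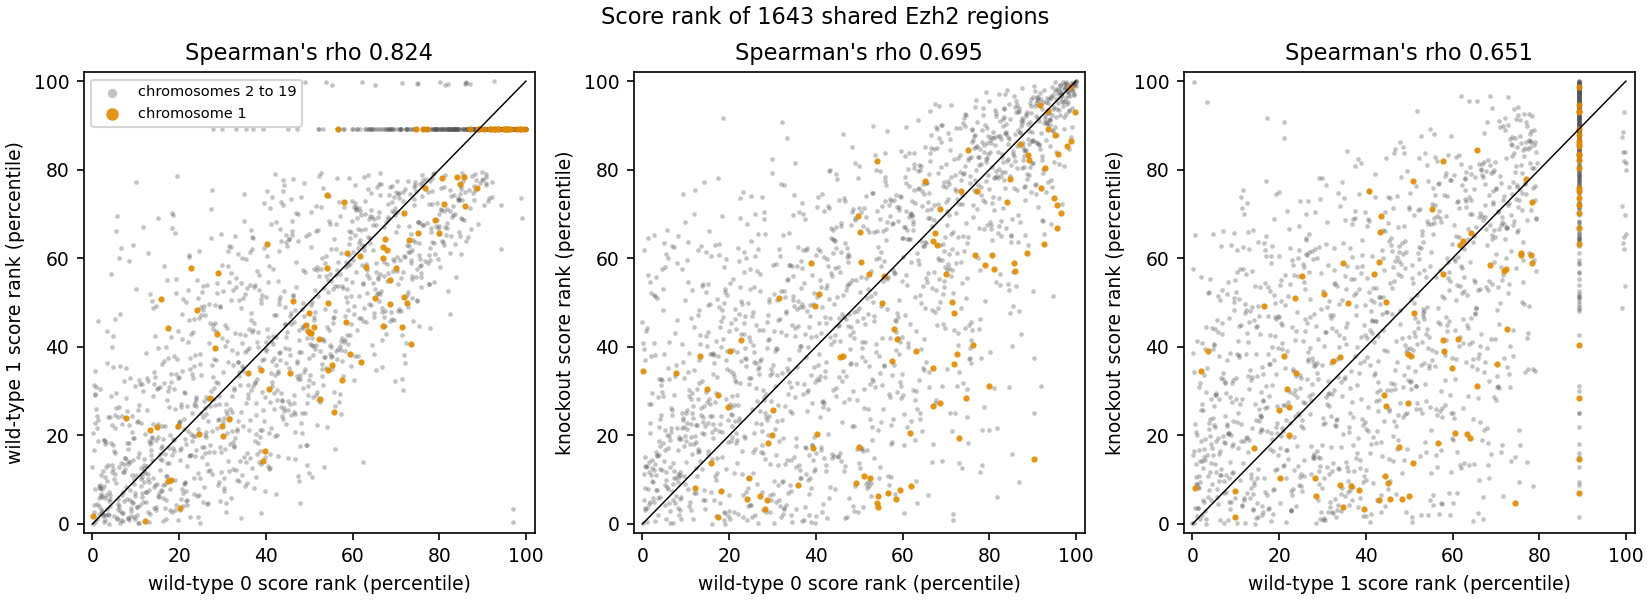
Score rank (percentile, 0 lowest to 100 highest) of the 1643 shared regions in each pair of lists, 1 point per region, with chromosome 1 in orange and the line of equal rank in black. Points spread more widely in the panels with the knockout (rho 0.695 and 0.651) than between the wild-type libraries (0.824), and the straight row or column of points is the 3100 score of wild-type 1.

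The knockout rank lay below both wild-type ranks in 565 regions (34.4%), above both in 667 (40.6%) and between them in 411 (25%). In the 797 regions whose wild-type ranks were within 10 points of each other, the knockout was a median of 2.98 points above their mean (5th to 95th percentile of regions -32.0 to 36.6). It was more than 25 points lower in 67 of these (8.41%) and more than 25 points higher in 90 (11.3%). Ranks within 1 set of regions offset each other, so shifts in both directions follow from the ranking.

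The 5 largest falls in rank were taken among regions whose wild-type ranks were within 10 points, and a fall of this size can start only from a high rank. The region at chr1:180457324-180461435 stood at percentile 90.4 in wild-type 0 and 89.3 in wild-type 1 and at 14.7 in the knockout. It was 1 peak over 3707 bp in wild-type 0, and 2 knockout peaks covered 758 bp. At Hmga2, which encodes an architectural chromatin protein (chr10:119911159-119917259), the percentiles were 90.4, 89.3 and 25.2. The region at chr19:25744093-25750119 stood at 91.8, 89.3 and 31.2, the one at chr14:122874577-122879186 at 63.3, 57.4 and 4.66, and the one at chr4:109328862-109332719 at 78.4, 75.3 and 21.3. At the regions on chromosomes 1, 10 and 19 the wild-type 1 score was 3100, so 89.3 is the tied percentile of regions at the ceiling. Wild-type 1 does not order those regions among themselves, and its agreement with wild-type 0 there is loose. Covered length was low in the knockout at all 5 regions, at 0.126 to 0.378 of wild-type 0.

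The 5 largest gains, which can start only from a low rank, were at regions with 1 peak in each wild-type list. The region at chr11:101030305-101032757 stood at percentile 18.6 in wild-type 0 and 17.1 in wild-type 1 and at 91.8 in the knockout, where 1360 bp were covered against 665 bp in wild-type 0. It was followed by chr11:116083012-116085221, at 12.2, 11.6 and 75.5. The regions at chr4:118220492-118221067, chr8:125199395-125202068 and chr2:92439894-92441887 had knockout percentiles of 65.2, 69.9 and 65.0 and wild-type percentiles of at most 17.0. The knockout covered 1.26 to 2.37 times the wild-type 0 length at these 5 regions, and all of them were less than 3 kb in span.

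Chromosome 1 stood apart from the other autosomes in both covered length and rank, a contrast singled out after its values were seen. The median knockout to wild-type 0 ratio over its 101 shared regions was 0.574, against 0.715 (chromosome 4) to 0.981 (chromosome 17) on the other 18. The ratio was below 0.5 in 35 of the 101 regions (34.7%, against 18.9% of all shared regions). The wild-type 0 to wild-type 1 ratio on chromosome 1 was 0.443, inside the range of the others (0.407 to 0.515). In rank, chromosome 1 regions were a median of 13.6 percentile points lower in the knockout than in wild-type 0, with a median change of -13.6 against -3.17 to 7.95 on the others, and of -23.0 on chromosome 1 with equal covered length. They were also the lowest in wild-type 1 against wild-type 0, at -6.21 against -5.66 to 6.15, and the knockout change against wild-type 1 was -9.93 against -6.30 to 10.5. The knockout rank lay below both wild-type ranks in 63 of the 101 regions (62.4%, against 34.4% of all) and above both in 21 (20.8%, against 40.6%). The low ratio held over both parts of the chromosome, at 0.544 in the first 100 Mb (59 regions) and 0.649 beyond (42 regions).

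Fewer called sites went with it. Chromosome 1 held 339 of the knockout peaks (5.49% of the list), 402 of wild-type 0 (7.53%) and 1116 of wild-type 1 (9.63%), and the knockout had a peak in 101 of its 193 wild-type regions (52.3%, against 63.4% overall). Chromosome 13 was slightly lower in that share, at 51.4%, but its covered-length ratio was 0.784. The region at Pax3, the region at En1 and 4 others of the 32 regions named by the rule lie on chromosome 1. Without chromosome 1 the knockout to wild-type 0 ratio over all shared regions was 0.819. The part that the chromosome's share of reads or number of copies has in these values was not tested, as the lists hold neither.

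Chromosomes 11, 17 and 8 had the largest shares of regions ranked higher in the knockout than in both wild-type lists. Knockout ranks were above both wild-type ranks in 96 of 156 regions on chromosome 11 (61.5%, against 40.6% of all), in 31 of 54 on chromosome 17 (57.4%) and in 56 of 106 on chromosome 8 (52.8%). The median covered-length ratios were 0.944, 0.981 and 0.926, with chromosome 18 at 0.941. Their median rank changes against wild-type 0 were 6.17, 7.95 and 2.19 points, and chromosomes 6, 10, 15, 16 and 18 lay above chromosome 8 in that change. Chromosome 11 held 11.8% of the knockout peaks, 8.50% of wild-type 0 and 9.41% of wild-type 1, chromosome 8 held 8.33%, 5.93% and 7.23%, and chromosome 17 held 3.55%, 2.77% and 3.60%. These 3 chromosomes were chosen after their values were seen, and the differences between chromosomes were not tested.

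**Figure D5:**
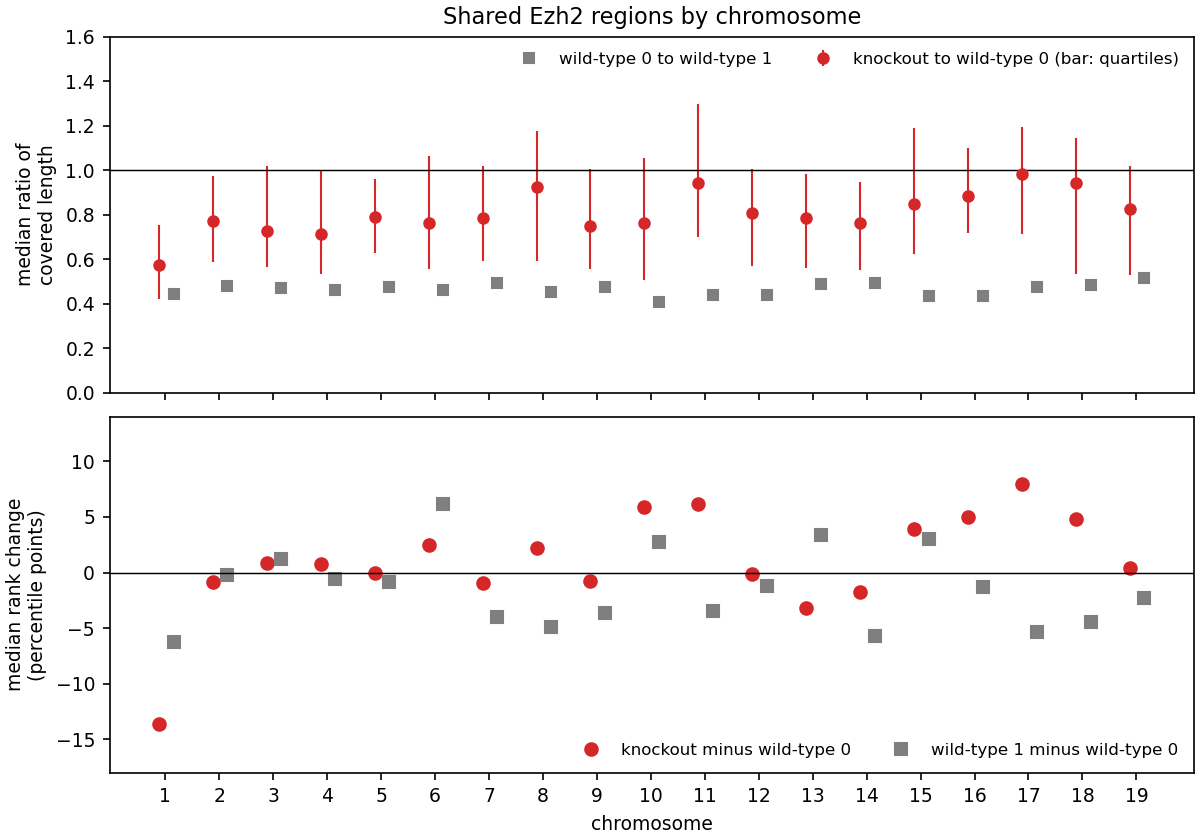
Shared regions by chromosome: median ratio of covered length (top; the bar on each knockout point spans the quartiles over regions) and median change in score rank in percentile points (bottom), for the knockout against wild-type 0 (circles) and between the wild-type libraries (squares, 0 to 1 for the ratio and 1 minus 0 for the rank). Chromosome 1 has the lowest knockout ratio, 0.574, and the lowest rank change, -13.6, while its wild-type ratio of 0.443 lies among those of the other chromosomes.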

How the data were processed

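Libraries were amplified with 15 PCR cycles, per the labels' protocols. The submitters' processing notes name Bowtie 0.12.7, MACS 1.4 and the mm9 build, without parameters. Both wild-type inputs together served as control, per the series' design text, and no source used here says whether the knockout list had another one. The deposited score of each peak is the authors' value, which in MACS is -10 times log10 of its p-value, and was used to rank or filter within a list only.

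Peaks of chromosomes 1 to 19 that overlapped by at least 1 bp were merged over the 3 lists, and a region was shared when each list had a peak in it. Covered length is the sum of peak lengths, and ranks use the highest score in a region. Positions are 1-based. Regions were named by a rule that took the first 5 by span, rank fall, rank gain, excess and deficit of pieces, and low and high covered-length ratio (32 distinct regions). Regions ranked for falls and gains had wild-type ranks within 10 points, and those ranked by ratio had at least 3 kb covered in wild-type 0. No annotation of the mm9 build was used. Members, rule and alternatives were chosen with earlier results of these data known. Computations used Python 3.11.15, numpy 2.4.6, pandas 2.3.3 and scipy 1.17.1, and figures matplotlib 3.10.9. The procedure was tested on simulated lists of 2592 regions: a planted covered-length ratio of 0.8 was recovered as 0.7998, and 30% of split regions as 30.08%. Each simulated region had 1 wild-type 0 peak, lengths and splits without noise, and lay at least 5 kb from the next. The run therefore checks the computation only, and not the merging of crowded or fragmented peaks.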

Additional observations from a re-analysis of the deposited data

How the results depend on the processing

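The alternatives without chromosome 1 and below the score ceiling were chosen after seeing the data. No paired analysis was possible because the knockout has 1 library. Over all shared regions the median covered-length ratios stayed inside the main quartiles over regions under all alternatives. On chromosome 1 the knockout to wild-type 0 ratio was 0.643 with peaks joined, and the rank change -23.0 points with equal covered length. The common lowest score, a stricter overlap and chromosomes X and Y moved no main result beyond the band set for it. For distances that band was the standard deviation between the wild-type values, which is too wide to register most moves. With the common lowest score the wild-type 1 median distance rose from 38448.5 to 58318 bp and stayed inside it. Depth is unknown, so how far it limits these lists cannot be said. For rank correlation and median shift, pairs are given as knockout with wild-type 0, knockout with wild-type 1 and the wild-type pair. With equal covered length the correlations were 0.645, 0.345 and 0.362 and the shifts 13.9, 21.5 and 21.7 points. Below the ceiling they were 0.514, 0.463 and 0.733, with shifts of 17.5, 19.1 and 12.7, and with summed scores 0.756, 0.741 and 0.886, with shifts of 10.3, 10.8 and 7.80. The wild-type pair had 0.857 and 8.99 with peaks within 1 kb joined, and 0.761 and 12.6 at scores of 100 or above. The share of regions called in the knockout was 98.0% with equal covered length, 67.0% with peaks joined and 54.9% at scores of 100 or above. More knockout than wild-type 0 peaks stood in 58.6%, 12% and 15.7% of shared regions in that order, and in 26.7% with equal list lengths. Fewer stood in 16.6%, 6.61% and 22.4%. Joining gave 1.38 knockout and 1.30 wild-type 0 peaks per region, and equal covered length 3.90 and 3.01. After joining, median distances were 180667 bp (knockout), 359598 bp (wild-type 0) and 118125 bp (wild-type 1), and pairs under 5 kb 15.6%, 15.6% and 10.3%. The wild-type 1 distance was 1553250 bp with equal covered length (20.6% of pairs under 5 kb), 112828 bp with equal lengths and 163885 bp with scores of at least 100. Leaving out each wild-type library in turn gave 19% to 47.5% called in the knockout and 1.39 to 1.99 knockout peaks per region. Without wild-type 0 the knockout correlation with wild-type 1 was 0.692 and the shift 13.1. Without wild-type 1, wild-type 0 had 1.18 peaks per region, and 22.4% of regions had more and 7.71% fewer knockout peaks. Shorter lists and fewer regions enter the score, length and cover settings, and equal covered length shortened the wild-type lists alone. The cause was not tested otherwise.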
